A study of Mus musculus with 6 samples.

Results

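The 39 genes described here encode digestive enzymes of the intestinal brush border and proteins of the microvilli that carry them. They are a list of names, 22 enzymes and 17 microvillus and associated genes, drawn up with earlier results of these data known. A probe set annotated with that single gene symbol was found for 35 of them, 19 enzymes and 16 microvillus and associated genes, out of 18193 genes measured in the same way. All 35 exceeded 5 on the log2 scale on at least 3 of 6 arrays and were therefore among the 8893 genes tested. The sucrase-isomaltase gene Sis, the sphingomyelinase gene Enpp7, the gamma-glutamyltransferase gene Ggt1 and the microvillus gene Baiap2l2 were not analysed here.

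The brush border is the carpet of microvilli on the luminal face of the enterocyte. Each microvillus holds a bundle of parallel actin filaments, cross-linked by villin, espin and plastin, capped at the tip by Eps8 and its partners, and tied to the membrane by ezrin. Cadherins at the tips link neighbouring microvilli, and the membrane around them carries the disaccharidases, peptidases and phosphatases that complete digestion. The enzyme GGTase-I attaches a geranylgeranyl lipid to proteins, which helps to hold them at membranes.

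RNA came from intestinal epithelial cells of 6 mice with a mixed background of the strains 129/SV and C57BL/6, and each mouse was measured on 1 Affymetrix array. All 6 carried floxed Pggt-Ibeta alleles, the gene for the GGTase-I beta subunit, which is Pggt1b in current nomenclature. The 3 control mice were negative and the 3 deficient mice positive for VillincreERT2, a tamoxifen-activated Cre recombinase under the promoter of villin, an epithelial gene that is itself among the genes described. Both groups received 1 mg of tamoxifen on 3 consecutive days, and cells were taken on day 6 counted from the first injection, so both groups share the tamoxifen, and Cre activity and loss of the gene cannot be told apart. The labels do not give age, sex or the stretch of intestine sampled.

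The arrays were alike in overall signal, with 35.5% to 36.5% of probe sets above 5. Pggt1b itself read 9.30, 9.55 and 9.33 in controls and 9.75, 8.88 and 8.83 in deficient mice, a log2 change of -0.24 ± 0.27 (SE, limma adjusted p = 0.678). The groups overlapped and this probe set does not check the labels, since its position relative to the floxed exon is not given. Pggt1b has 4 probe sets, of which only that with the highest mean is described here. The arrays called control 2 and deficient 1 stood apart in genes that mark stretches of the intestine. The ileal bile acid genes Fabp6 and Slc10a2 read 12.73 and 5.85 in control 2, against 15.03 to 15.73 and 8.46 to 9.94 on the other arrays. Over the 7 tested ileum genes the mean level was 11.12 in control 2, 12.07 and 12.57 in the other controls and 11.55 to 11.94 in deficient mice. Not all of them followed, since Guca2b was higher in control 2, at 13.75, than in the other controls, and Slc51a, at 11.11, and Amn, at 9.97, were lowest in deficient 1. The water channel genes Aqp4 and Aqp8, from a list of 7 tested colon genes, read 12.57 and 12.81 in deficient 1, against 8.62 to 10.64 and 9.63 to 11.33 elsewhere. Over the 7 colon genes the mean level was 11.14 in deficient 1, 9.34 and 10.01 in the other deficient arrays and 10.12 to 10.60 in controls. Here too not all followed, since 3 of the 7 had lower means in deficient mice. For 2 of the 7, every deficient mouse, deficient 1 included, lay below every control, against 16.7% of all genes tested. Over 8 proximal small intestine genes, of which Mme is also described below, the mean level was lowest in deficient 1 at 10.1 and highest in control 2 at 11.6. Of these 8, 6 had lower means in deficient mice and 2 higher. For 1 of them every deficient mouse lay above every control, against 9.00% of all genes tested, and for 2 every deficient mouse lay below, against 16.7%. A list of T cell and intraepithelial lymphocyte genes had 11 of 13 tested members called lower. Its mean level, taken over 14 measured genes of which 1 stayed at or below 5 on every array, was 9.18 to 9.33 in controls and 5.42 to 6.80 in deficient mice. Other lists moved too. Of the myeloid genes, 8 of 8 tested had lower means and 4 were called, with mean levels over 10 measured genes of 6.93 to 7.77 in controls and 5.64 to 6.44 in deficient mice. Among the called genes, the lymphocyte genes Cd3d, Il2rb and Cd7 and the myeloid gene Itgax stayed below 5 in every deficient mouse. They passed the filter only through the control arrays, so their calls are no separate support for a difference. Of the stromal, muscle and endothelial genes, 3 of 4 tested had lower means and 0 were called, and of 10 measured 5 stayed at or below 5 on every array. Genes of proliferating crypt cells had higher means in deficient mice for 8 of 8 tested, 0 of them called, with a median log2 change of 0.85. Their mean level was lowest in control 2, at 6.47, against 7.09 to 8.07 on the other arrays, as was that of the stem cell genes, at 5.64 against 6.43 to 6.89. Both mean levels were taken over 9 measured genes. Of these, 1 crypt gene and 3 stem cell genes stayed at or below 5 on every array. A list of 8 epithelial genes, which includes Vil1, had 0 called and mean levels of 13.9 to 14.1 in controls and 14.1 to 14.5 in deficient mice. A list of 10 enterocyte genes had 0 called and 6 lower means. Its mean level was lowest in deficient 1, at 13.48, and highest in control 2, at 14.48, against 13.85 to 14.26 on the other arrays. What part these differences had in the values below was not tested. In such bulk RNA, fewer cells of a type and less RNA per cell cannot be told apart.

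None of the 35 brush border genes passed the test. With limma over all 8893 genes, 0 of 35 had an adjusted p under 0.05, while 186 genes or 2.09% of all tested did so, 176 of them lower in the deficient mice. At an unadjusted p under 0.05 there were 3 of 35, namely Lct and Asah2 with lower means and Baiap2l1 with a higher one, against 16.9% of all genes. The smallest adjusted p was 0.206, for Baiap2l1. No member passed under any alternative of the processing either. The 3 arrays of each group did not overlap for 4 members in the lower direction (Lct, Asah2, Ush1c and Pdzk1), against 16.7% of all genes, and for 3 in the higher direction (Baiap2l1, Lgals4 and Fabp2), against 9.00% of all genes. With 3 arrays against 3, a two-sided permutation test of a single gene cannot go below 0.10.

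A p that misses the threshold does not show equal expression, so the 95% interval of each change was set against a 2-fold bound. For 18 of 35 members the whole interval lay within a log2 change of -1 to 1, against 64.6% of all genes tested. The microvillus and associated genes supplied 12 of these, out of 16, and the enzymes 6 of 19. For the remaining 17 members a change of 2-fold in at least 1 direction lay inside the interval. The enzymes were the more variable between mice of one group, with a median SD of 0.40 in controls and 0.39 in deficient mice, compared with 0.24 and 0.26 for the microvillus and associated genes and 0.24 and 0.26 for all genes tested.

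**Figure D1:**
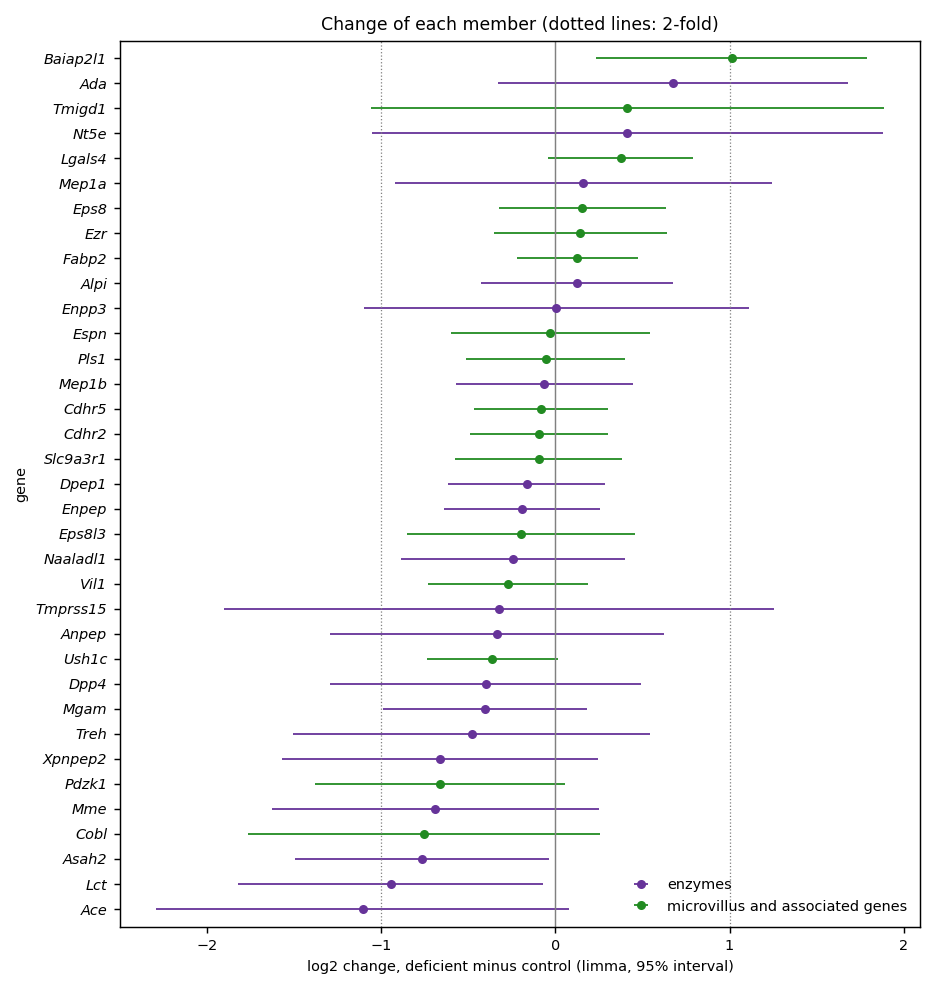
Log2 change of the 35 measured brush border genes, deficient minus control, on the x axis, with 1 gene per row on the y axis ordered by size. Points are limma estimates over 3 control and 3 deficient mice, lines are 95% intervals and dotted lines mark a 2-fold change; the intervals of Baiap2l1, Lct and Asah2 lie to one side of 0, and most microvillus genes (green) have shorter intervals than the enzymes (purple).

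As groups, the enzymes had a median log2 change of -0.32, with lower means in deficient mice for 14 of 19, and the microvillus and associated genes a median of -0.07, with lower means for 10 of 16. Over all genes tested the median was -0.04 and 54.6% had lower means. After each array was centred on its median, the microvillus median became 0.01, and the directions of Mep1b, Espn and Pls1 turned. The difference between the enzyme and microvillus medians was -0.25. It was -0.05 without deficient 1 and -0.08 without control 3, so leaving out either of these mice removed most of it. Deficient 1 gave the lowest of the 6 readings for 12 of 19 enzymes and 4 of 16 microvillus and associated genes, while 26.4% of all genes tested were lowest there. Control 2 gave the highest reading for 16 of 35 members, against 20% of all genes. Deficient 3 was neither the lowest nor the highest array for any member, while it was lowest for 10.7% and highest for 5.6% of all genes tested.

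**Figure D2:**
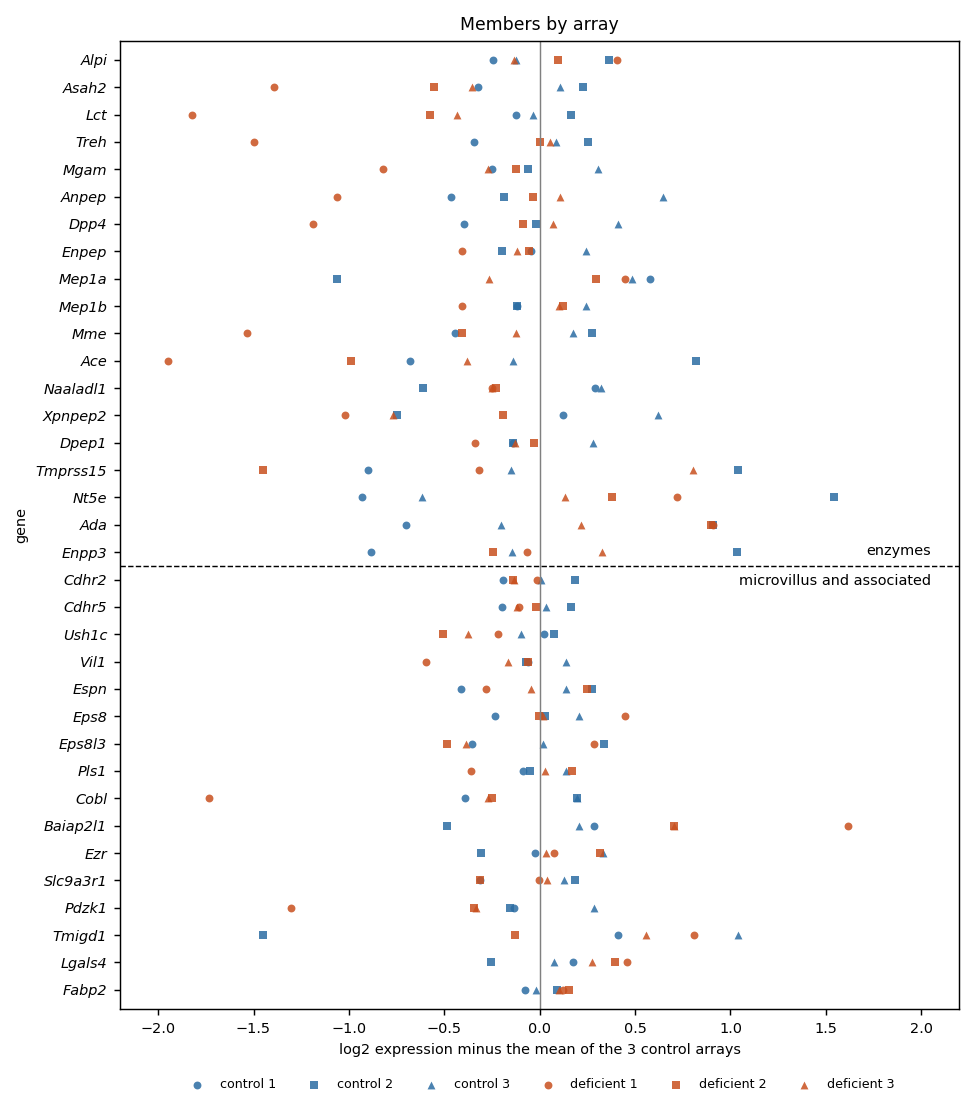
Each of the 35 measured genes (y axis) on the 6 arrays, drawn as log2 expression minus the mean of the 3 control arrays (x axis). Control mice are blue and deficient mice red, with 1 symbol per mouse and the dashed line between enzymes and microvillus genes; the red circles of deficient 1 lie far to the left for Lct, Treh, Mme, Ace and Cobl, whereas for the adhesion genes Cdhr2 and Cdhr5 all 6 arrays lie close together.

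Among the sugar-splitting enzymes, lactase differed most between the groups. Lct, which encodes the lactase that hydrolyses milk sugar, read 14.37, 14.66 and 14.46 in controls and 12.67, 13.92 and 14.06 in deficient mice. Every deficient mouse lay below every control, with deficient 1 far below the others. The log2 change was -0.94 ± 0.37 (SE), with a 95% interval of -1.82 to -0.07 and an adjusted p of 0.273, and it was -0.51 without deficient 1. Treh, the trehalase gene, read 9.55, 10.15 and 9.98 against 8.40, 9.90 and 9.95. Only deficient 1 was low, and the change of -0.48 ± 0.43 (SE, adjusted p = 0.587) became 0.03 when that mouse was left out. Mgam, the maltase-glucoamylase gene, read 14.15, 14.34 and 14.71 against 13.58, 14.28 and 14.13. The groups overlapped, and the change was -0.40 ± 0.25 (SE, adjusted p = 0.429), or -0.20 without deficient 1. All 3 disaccharidases thus had lower means, and in all 3 the lowest reading came from the mouse in which the colon list was highest and the proximal list lowest. The part of that shift in these values was not tested.

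The alkaline phosphatase gene Alpi, a classical brush border marker whose enzyme detoxifies bacterial lipopolysaccharide, read 13.77, 14.38 and 13.89 in controls and 14.42, 14.11 and 13.88 in deficient mice. The 2 groups covered nearly the same range, and the change was 0.12 ± 0.23 (SE, 95% interval -0.43 to 0.67, adjusted p = 0.808). Asah2, which encodes the neutral ceramidase that digests dietary sphingolipid, read 13.65, 14.20 and 14.08 against 12.58, 13.42 and 13.62. No deficient mouse reached the lowest control, and the change was -0.77 ± 0.31 (SE, 95% interval -1.50 to -0.04, adjusted p = 0.279). Without deficient 1 it was -0.45. The 2 further Asah2 probe sets gave -0.22 and 0.34, with overlapping groups in both, and the mean of all 3 gave -0.22.

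Of 11 peptidases, 10 had lower means in deficient mice, with a median log2 change of -0.32, and 0 passed. The largest difference was in Ace, the gene for a peptidase known from the renin-angiotensin system, which read 10.89, 12.39 and 11.43 in controls and 9.62, 10.58 and 11.19 in deficient mice. Deficient 3 lay above control 1, and the change was -1.10 ± 0.50 (SE, 95% interval -2.29 to 0.08, adjusted p = 0.319). It was -0.70 without control 2, -0.68 without deficient 1 and -0.27 with both left out. Mme, the neprilysin gene, read 12.72, 13.44 and 13.34 against 11.63, 12.76 and 13.04. The groups overlapped through control 1, and the change of -0.69 ± 0.40 (SE, adjusted p = 0.407) was -0.27 without deficient 1. Xpnpep2, which encodes a membrane aminopeptidase that removes residues ahead of proline, read 7.63, 6.76 and 8.13 against 6.49, 7.32 and 6.74. Here the groups interleaved, with a change of -0.66 ± 0.38 (SE, adjusted p = 0.409).

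The other peptidases differed less. Aminopeptidase N (Anpep) had group means of 11.8 ± 0.58 and 11.5 ± 0.64 (SD, n = 3 each, as for the means that follow), a change of -0.33 that became 0.03 without deficient 1. Dpp4, which clips dipeptides and inactivates incretin hormones, had means of 12.4 ± 0.40 and 12.0 ± 0.69. Its change of -0.40 became -0.01 without deficient 1. Further Dpp4 probe sets gave -0.63, -0.40 and -1.44, all with overlapping groups, and the mean of all its probe sets gave -0.72 (adjusted p = 0.492). The aminopeptidase A gene Enpep, at 14.97 ± 0.22 and 14.77 ± 0.19, and the dipeptidase gene Dpep1, at 12.8 ± 0.24 and 12.6 ± 0.16, had 95% intervals of -0.64 to 0.25 and -0.61 to 0.28. Both intervals lie within a 2-fold change. The same holds for the meprin beta gene Mep1b, with means of 14.0 ± 0.21 and 14.0 ± 0.30 and an interval of -0.57 to 0.44. Naaladl1, an aminopeptidase gene, had means of 13.8 ± 0.53 and 13.5 ± 0.015. Its control 2 value was low at 13.17 and the change of -0.24 became -0.55 without that mouse (adjusted p = 0.277). The meprin alpha gene Mep1a, at 10.9 ± 0.92 and 11.1 ± 0.37, was the only peptidase with a higher mean in deficient mice. Control 2 read 9.86 for it, and the change of 0.16 became -0.37 without that mouse. The enteropeptidase gene Tmprss15, whose product activates trypsinogen, lay close to the filter level of 5 with means of 5.33 ± 0.97 and 5.01 ± 1.12, and its interval of -1.90 to 1.26 left its direction undetermined. For Mme and Ace a second probe set read 0.14 and 0.04, and for Mep1a -0.04, each opposite in sign to the probe set described. The mean of all probe sets was -0.53 for Ace and -0.27 for Mme.

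The 3 genes of nucleotide breakdown varied widely among the controls, so their changes depended on which control was included. Nt5e, the gene for the ectoenzyme that turns AMP into adenosine, read 9.78, 12.25 and 10.09 in controls and 11.43, 11.09 and 10.84 in deficient mice. The 3 deficient mice lay close together, above controls 1 and 3 and below control 2. The change was 0.41 ± 0.62 (SE, 95% interval -1.05 to 1.88, adjusted p = 0.753) and became 1.18 without control 2 (adjusted p = 0.106) and -0.05 without control 1. Ada, the adenosine deaminase gene, read 11.90, 13.51 and 12.40 against 13.51, 13.50 and 12.82. Control 2 again stood with the deficient mice, and the change of 0.67 ± 0.42 (SE, adjusted p = 0.441) became 1.13 without it (adjusted p = 0.212) and 0.32 without control 1. Enpp3, an ectonucleotide pyrophosphatase gene, read 12.91, 14.83 and 13.65 against 13.73, 13.55 and 14.12. Its groups had the same mean, with a change of 0.01 ± 0.47 (SE, adjusted p = 0.996), or 0.52 without control 2 and -0.44 without control 1. Further tested Enpp3 probe sets gave 0.55 and 0.27, with overlapping groups. Nt5e and Ada were also on the list of villus tip genes. The mean level of that list, with both genes included, was 12.62 in control 2 and 12.66 in deficient 1, against 11.83 to 12.26 on the other arrays. Control 2 was the array with low ileal Fabp6 and Slc10a2 and the lowest crypt and stem cell lists. The relation between these facts was not tested.

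**Figure D3:**
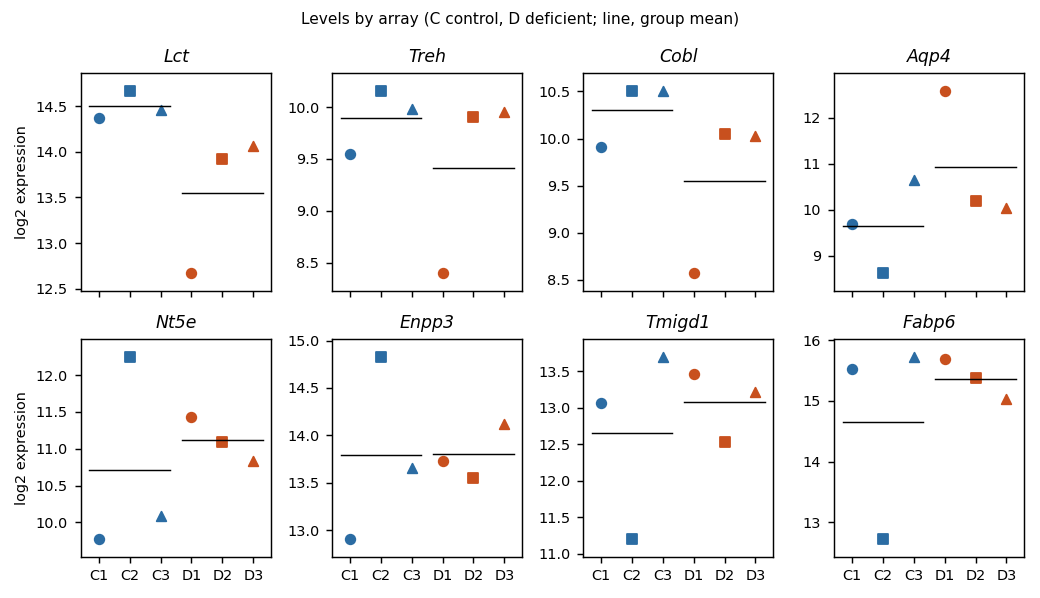
Log2 expression (y axis) of 6 brush border genes and 2 genes of intestinal stretches on the 6 arrays (x axis, C control, D deficient, lines are group means). Lct, Treh and Cobl are lowest in deficient 1, where Aqp4 is highest at 12.57; Nt5e and Enpp3 are highest and Tmigd1 lowest in control 2, where Fabp6 is lowest at 12.73.

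The genes that tie microvilli to each other read alike in both groups, apart from harmonin. Cdhr2, one of the 2 protocadherins of the tip links, read 13.00, 13.38 and 13.20 in controls and 13.18, 13.05 and 13.06 in deficient mice. The 3 deficient values lay within the control range, and the change was -0.09 ± 0.17 (SE, 95% interval -0.49 to 0.30, adjusted p = 0.792). Cdhr5, its partner, read 11.87, 12.23 and 12.10 against 11.96, 12.05 and 11.95. These deficient mice also lay inside the control range, with a change of -0.08 ± 0.16 (SE, 95% interval -0.47 to 0.30, adjusted p = 0.822). Ush1c, which encodes the scaffold harmonin that anchors both cadherins, read 10.71, 10.76 and 10.59 against 10.47, 10.18 and 10.31. Every deficient mouse was below every control, but by little, with a change of -0.36 ± 0.16 (SE, 95% interval -0.74 to 0.01, adjusted p = 0.305). Leaving out single arrays moved it only between -0.44 and -0.29.

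Genes of the actin core had a median log2 change of -0.06 over 7 members. The exception by unadjusted p was Baiap2l1, which encodes an I-BAR protein that binds the membrane and works with Eps8 at the microvillus tip. It read 11.17, 10.40 and 11.09 in controls and 12.50, 11.59 and 11.59 in deficient mice. Every deficient mouse lay above every control, and the change was 1.01 ± 0.33 (SE, 95% interval 0.24 to 1.79, adjusted p = 0.206). It was 0.71 without deficient 1 and 0.47 without deficient 1 and control 2. A second Baiap2l1 probe set read 8.52, 7.64 and 8.16 against 8.88, 8.67 and 8.40, a difference of 0.55 in the same direction with overlapping groups. Cobl, the gene for the actin nucleator cordon-bleu, read 9.91, 10.50 and 10.50 against 8.57, 10.05 and 10.03. Only deficient 1 was clearly lower, and the change of -0.75 ± 0.43 (SE, adjusted p = 0.402) was -0.26 without it. Vil1, the villin gene, read 14.45, 14.44 and 14.65 against 13.92, 14.45 and 14.35. Its change was -0.27 ± 0.19 (SE, 95% interval -0.73 to 0.19, adjusted p = 0.494), and -0.11 without deficient 1.

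The remaining actin genes showed smaller differences, all with intervals within a 2-fold change for the probe set that represented each gene. The bundler genes Espn and Pls1 had means of 7.17 ± 0.36 and 7.15 ± 0.26, and of 13.3 ± 0.12 and 13.3 ± 0.27, with intervals of -0.60 to 0.54 and -0.51 to 0.40. Eps8, the tip-capping gene, had means of 12.1 ± 0.22 and 12.3 ± 0.25 and a change of 0.15. This probe set is of a design that can match related transcripts, and the bound does not extend to the other Eps8 probe sets. Another Eps8 probe set read 8.26, 8.32 and 8.71 in controls and 10.07, 9.00 and 9.35 in deficient mice, and another gave a difference of 0.46. The groups did not overlap for the former, whose change of 1.05 had an unadjusted p of 0.01 and an adjusted p of 0.193 when every probe set was tested on its own. In that test, 0 of the 52 tested probe sets of these genes passed, against 1.47% of 14478 probe sets, and 4 had an unadjusted p under 0.05. The share of all probe sets at that unadjusted p is not given here, so the count of 4 is not a result about these genes. The Eps8 relative Eps8l3 had means of 11.9 ± 0.35 and 11.7 ± 0.42, a change of -0.20.

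Of the genes that connect membrane and cytoskeleton, 0 of 3 passed, and Pdzk1 had the largest difference. Ezr, the ezrin gene, read 14.28, 14.00 and 14.64 in controls and 14.38, 14.62 and 14.34 in deficient mice. The groups overlapped, with a change of 0.14 ± 0.21 (SE, 95% interval -0.35 to 0.64, adjusted p = 0.748). Slc9a3r1, which encodes the scaffold that ezrin binds under apical transporters, read 14.76, 15.26 and 15.20 against 15.07, 14.76 and 15.11. Its change was -0.10 ± 0.20 (SE, 95% interval -0.57 to 0.38, adjusted p = 0.830). Further Slc9a3r1 probe sets gave -0.15 and -0.47, the latter from 12.25, 12.92 and 12.78 in controls and 12.18, 12.05 and 12.31 in deficient mice, with overlap through control 1. Pdzk1, a related scaffold gene, read 11.58, 11.56 and 12.00 against 10.41, 11.37 and 11.38. No deficient mouse reached the controls, although deficient 2 and 3 lay below the lowest control by less than the control SD of 0.25, and the change of -0.66 ± 0.30 (SE, adjusted p = 0.322) was -0.34 without deficient 1.

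The other enterocyte genes all had higher means in deficient mice. Lgals4, the gene for galectin-4, a lectin of apical lipid rafts, read 14.72, 14.29 and 14.62 in controls and 15.00, 14.94 and 14.82 in deficient mice. The groups did not overlap, and the change was 0.37 ± 0.18 (SE, 95% interval -0.04 to 0.79, adjusted p = 0.331). Fabp2, the intestinal fatty acid binding protein gene, read 15.31, 15.48 and 15.37 against 15.51, 15.54 and 15.49. All deficient values were above all controls by a narrow margin, with a change of 0.13 ± 0.15 (SE, 95% interval -0.22 to 0.47, adjusted p = 0.674). Tmigd1, an adhesion protein gene of the brush border, read 13.07, 11.21 and 13.70 against 13.47, 12.53 and 13.22. Control 2 alone was low, and the change of 0.41 ± 0.62 (SE, adjusted p = 0.753) became -0.31 without it.

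**Figure D4:**
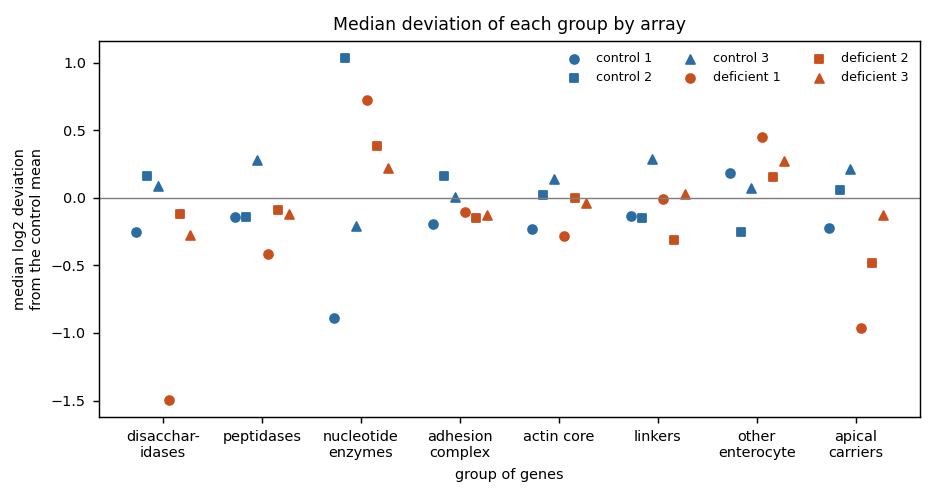
Median deviation of each group of genes from its control mean (y axis, log2) on each of the 6 arrays. The x axis holds the apical carriers and the member groups, without the group of Alpi and Asah2. Each symbol is 1 mouse; deficient 1 stands at -1.50 for the 3 disaccharidases and -0.97 for the carriers, control 2 stands at 1.03 for the 3 nucleotide enzymes, and the adhesion genes stay near 0 on all arrays.

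Leaving out control 2 and deficient 1 together, an alternative chosen after the data were seen, gave 0 of 35 members called and 26 of 35 intervals within a 2-fold change. The enzyme median was then -0.13 and the microvillus median -0.02, against -0.06 over all genes tested. Of the members, 5 had an unadjusted p under 0.05, and the smallest adjusted p was 0.119. The shares of all genes for these counts are not given here, so the counts are not a result about the members. Without deficient 1 alone the medians were -0.08 and -0.03, against -0.05 over all genes tested. Then 24 intervals lay within 2-fold, a count with the same limit. The enzyme means of the other 2 deficient mice thus lay nearer to the controls than those of deficient 1.

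Other genes of the same structure were examined from lists chosen by known function, 91 genes of which 82 were tested. In these, 4 were called lower and 0 higher, where 2.09% of all genes tested were called, and 11 of 82 had an unadjusted p under 0.05, where 16.9% of all genes had. Rdx, the gene for radixin, a relative of ezrin, read 6.38, 6.20 and 6.37 in controls and 4.68, 4.15 and 4.76 in deficient mice. It fell in every deficient mouse to below the filter level of 5 (log2 change -1.79, adjusted p = 0.0068), which is at least 2.49-fold lower when the control mean is set against that level. It was the only called gene among 17 tested microvillus core, adhesion and motor genes, whose median was 0.05. Stk26, which encodes a kinase that phosphorylates ezrin in polarising epithelial cells, read 6.54, 6.18 and 6.41 against 4.63, 3.89 and 4.75. It also fell below the filter level, by at least 2.60-fold (log2 change -1.95, adjusted p = 0.012), and was the only called gene among 24 apical trafficking and polarity genes, whose median was 0.15. Rdx and Stk26 passed the filter only through the 3 control arrays. Their entry into the test thus depended on the group difference, and the calls are no separate support for it. The call on Stk26 was lost without control 1, without control 3 and without the filter on dim genes. It was also lost without control 2 and deficient 1 together (adjusted p = 0.051). Rdx kept its call in these fits. With the mean of all probe sets, Stk26 kept its call (adjusted p = 0.024), whereas Rdx did not pass the filter and was not tested. Rdx has 3 probe sets, of which 1 gave the call. Both genes read low in the same mice in which the lymphocyte, myeloid and stromal lists were low, and the part of that in their values was not tested.

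Cubn, the gene for the cobalamin receptor cubilin, read 12.18, 12.39 and 12.46 in controls and 10.97, 11.41 and 10.91 in deficient mice, and fell 2.38-fold (adjusted p = 0.024). This probe set is of a design that can match related transcripts. It was the only called gene among 24 apical carriers, of which 20 had lower means and whose median was -0.57. Deficient 1 was again lowest for the carriers as a group, with a median deviation of -0.97, against -0.48 and -0.13 in deficient 2 and 3. The nuclear receptor gene Ppara read 9.24, 9.32 and 9.77 against 8.21, 8.48 and 8.32 and fell 2.16-fold (adjusted p = 0.042), as the only called gene of 17 transcription factors of enterocyte genes, whose median was -0.02. Cubn kept its call only without deficient 2 among the fits that left out 1 mouse, and Ppara in none of them. Neither passed with the replicate numbers as a block or without the filter on dim genes. Ppara also missed the threshold with each array centred on its median (adjusted p = 0.0606) and with the mean of all its probe sets (log2 change -0.83, adjusted p = 0.0967).

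Promoter sequence is shown for the 3 measured disaccharidase genes, all with lower means in deficient mice, and for Baiap2l1, the gene with the smallest p in the other direction. Each run is the 250 bases before the annotated start, on the strand of the gene, from RefSeq on assembly GRCm38.p6. Lct lies at chr1:128328319-128328568 (minus strand), Treh at chr9:44672983-44673232 (plus strand), Mgam at chr6:40628581-40628830 (plus strand) and Baiap2l1 at chr5:144358113-144358362 (minus strand). Capitals mark matches on either strand to the GATA motif AGATAA, the CDX motif TTTATG, the HNF4 motif CAAAGT or the HNF1 half-site GTTAAT.
Lct: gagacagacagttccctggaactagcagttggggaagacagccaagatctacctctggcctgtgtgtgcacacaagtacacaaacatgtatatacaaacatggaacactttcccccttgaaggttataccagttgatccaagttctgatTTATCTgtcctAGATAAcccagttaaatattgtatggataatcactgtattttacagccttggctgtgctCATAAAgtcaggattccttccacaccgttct
Treh: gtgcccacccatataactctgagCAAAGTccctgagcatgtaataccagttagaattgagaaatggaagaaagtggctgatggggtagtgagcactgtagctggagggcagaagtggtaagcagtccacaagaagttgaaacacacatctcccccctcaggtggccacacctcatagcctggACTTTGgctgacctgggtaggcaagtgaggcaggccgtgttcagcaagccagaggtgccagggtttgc
Mgam: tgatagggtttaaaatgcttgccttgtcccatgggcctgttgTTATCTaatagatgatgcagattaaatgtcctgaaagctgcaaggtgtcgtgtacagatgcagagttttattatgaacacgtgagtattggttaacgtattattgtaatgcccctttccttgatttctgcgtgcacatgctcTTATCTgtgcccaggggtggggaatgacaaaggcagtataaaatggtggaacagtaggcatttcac
Baiap2l1: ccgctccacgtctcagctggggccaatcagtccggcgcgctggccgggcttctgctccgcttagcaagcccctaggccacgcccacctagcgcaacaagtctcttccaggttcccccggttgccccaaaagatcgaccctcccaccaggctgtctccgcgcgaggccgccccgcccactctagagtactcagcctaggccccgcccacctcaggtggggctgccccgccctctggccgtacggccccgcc

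The Lct promoter held 2 matches to the GATA motif, at -101 and -90, and 1 to the CDX motif at -31, counted from the start. Treh held no GATA or CDX match and 2 to the HNF4 motif, at -227 and -68. Mgam held 2 GATA matches, at -208 and -66, and Baiap2l1 held no match to any motif searched. A promoter entry was found for 32 of the 35 measured members. Among these, GATA matches occurred in 5 (11.4% of 27025 genes), CDX matches in 5 (12.4% of genes), the HNF4 motif CAAAGT in 10 (14.1% of genes) and the HNF1 half-site GTTAAT in 2 (7.49% of genes), each on either strand. These are matches of letters in a fixed window and not sites of binding. A gene with several annotated starts was counted as holding a motif if any of them did.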

How the data were processed

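Expression was measured on 6 arrays, 1 per mouse, and the values used are the authors' deposited log2 expression values, 1 per probe set. Per the submitters' processing notes they were made with Partek 6.5 and GCRMA, a probe-sequence-based background correction and normalization. GCRMA gathers dim probe sets near a floor, so changes against low levels depend on its background model. Precision is limited by the number of arrays.

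Of 45101 probe sets, 34958 had 1 gene symbol in the platform annotation. Each of 18193 genes was represented by its probe set with the highest mean over the 6 arrays. A gene entered the test if 3 or more arrays exceeded 5 on the log2 scale, which 8893 did. The test was limma 3.58.1 (R 4.3.3; lmFit and eBayes, two-sided) without covariates. P-values were adjusted by Benjamini-Hochberg over those genes and read at 0.05. Changes are deficient minus control. The fit was tested on simulated data. Levels of different probe sets were not set against each other. The replicates are labelled as biological, and their numbers did not pair the groups.

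The genes, their roles and all lists were chosen with earlier results of these data known. Per-array values are given for the 3 genes of each role with the smallest p, for Pggt1b and for called genes of the other lists, and for others as group means. A few further probe sets and array readings were chosen after their values were seen. Alternatives were trend and robust moderation, array weights, other filters, renormalization, the mean of all probe sets, a replicate block and leaving out each array. The joint omission of control 2 and deficient 1 and the test of every probe set were added after seeing the data.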

Additional observations from a re-analysis of the deposited data

How the results depend on the processing

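In the 16 alternatives 0 of the brush border genes passed, and the smallest adjusted p among those that left out 1 array was 0.106 (Nt5e, without control replicate 2). The count over all genes moved from 186 to 293 with array weights, 117 with the mean of all probe sets, 85 without the filter on dim genes and between 93 and 239 when 1 array was left out. The count of 4 other brush border genes became 2 with the mean of all probe sets, 1 without the filter, 1 without control 2 and deficient 1, and 1 to 3 when 1 array was left out. The replicate numbers share only a number, with correlations of deviations of 0.05, -0.29 and 0.00, and the replicate block gave 141 genes over all and 2 of the other brush border genes. The difference of medians ranged from -0.40 to -0.048 when 1 array was left out.

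Signs turned for genes with small changes. With array weights Ezr was at -0.030 and Tmigd1 at -0.33. Without control 2 and deficient 1, Treh was at 0.16, Cdhr5 at 0.011 and Tmigd1 at -0.51. When 1 array was left out, the ranges were -0.019 to 0.31 for Alpi, -0.75 to 0.028 for Treh, -0.050 to 1.18 for Nt5e, -0.44 to 0.52 for Enpp3, -0.19 to 3.33e-05 for Cdhr2, -0.011 to 0.31 for Ezr, -0.25 to 0.014 for Slc9a3r1 and -0.31 to 0.93 for Tmigd1. Removing a filter adds genes to the adjustment and removing arrays lowers the number of samples; the other causes were not tested.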
